A study of Mus musculus with 6 samples.

Results

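VISTA elements are non-coding DNA segments, mostly chosen for deep conservation or for enhancer marks, that were tested for enhancer activity with a lacZ reporter in transgenic mouse embryos. Of the 43523 distinct accessible regions measured in mouse nephron progenitors, 285 carried the number of a VISTA element and are described here. They were chosen as the distinct regions whose VISTA entry was not empty. Together they held 279 different elements.

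The cells were nephron progenitors of CD1 mice, taken at embryonic stage E14.5 or on the day of birth (P0), with no genetic change or treatment named in the labels. Each of the 3 libraries per stage came from the kidneys of 1 litter, pooled, so that every value is an average over animals and cells. Cells were selected on magnetic beads with antibodies against Itga8, an integrin subunit on their surface. Accessibility was read by ATAC-seq: Tn5 transposase cuts DNA where it is open, and a region's count reflects how often it was cut.

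An enhancer is bound by transcription factors and raises the transcription of a gene that may lie far away on the same chromosome. Its DNA is usually open in the cells that use it, although open DNA alone does not show that an enhancer is active. Nephron progenitors renew themselves or form the epithelium of the nephron, under regulators such as Six2, Sall1, Wt1 and Osr1. The table listed only element numbers, so the tissues in which each element was active, and whether it was active at all, were not analysed here. VISTA elements without an accessible region were not analysed here either.

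The element entries were first checked against the regions. No cell held more than 1 element, and the 4 VISTA regions listed in more than 1 row had the same counts and the same entry each time. In all, 5 elements were listed on several regions, namely 39, 423, 469, 1445 and 1500, and in each case the regions followed each other on 1 chromosome. The regions of 4 of them spanned 1779 to 4980 bp, and the 3 regions of element 469 spanned 26469 bp. All 3 were kept, although it could not be checked which of them the element itself overlaps. The 2 regions of element 1500 overlapped and shared most of their reads. Elements with numbers at most 2 apart, 106 neighbouring pairs, lay within 1 Mb of each other in 12.3% of cases, against 0.209% of all 38781 pairs. Elements close in number thus lay close on the genome more often than pairs in general. Without element coordinates, a constant shift of the numbering could not be checked. A second annotation, the linked genes of an enhancer atlas, was out of step with the regions: 3 of 129 VISTA regions with such a gene lay on its chromosome. It was used only to pair gene identifiers with names, and not to link a region to a gene.

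Sequences are shown for 4 VISTA regions at promoters, because the RefSeq table used here covers only windows at gene starts. Some of these windows lay in VISTA regions classed as intergenic or intronic and are not shown. Ednra, Sox12 and Inhba are among the most open VISTA promoters. Pakap has the most matches among VISTA promoters to the motif described next, as many as a window in intronic element 1462. Each window runs from 250 bases before to 50 after the gene's start in build GRCm38.p6, 5′ to 3′ on the gene's strand. Capitals mark GGGAGGG or its reverse complement CCCTCCC, the G-rich core that the zinc finger protein Maz is known to bind.
Ednra: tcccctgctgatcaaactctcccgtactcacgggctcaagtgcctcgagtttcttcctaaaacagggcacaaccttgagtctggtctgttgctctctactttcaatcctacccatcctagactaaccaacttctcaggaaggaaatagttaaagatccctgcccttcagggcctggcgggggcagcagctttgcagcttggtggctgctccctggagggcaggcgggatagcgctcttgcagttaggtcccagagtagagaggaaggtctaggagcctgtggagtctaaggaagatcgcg
Sox12: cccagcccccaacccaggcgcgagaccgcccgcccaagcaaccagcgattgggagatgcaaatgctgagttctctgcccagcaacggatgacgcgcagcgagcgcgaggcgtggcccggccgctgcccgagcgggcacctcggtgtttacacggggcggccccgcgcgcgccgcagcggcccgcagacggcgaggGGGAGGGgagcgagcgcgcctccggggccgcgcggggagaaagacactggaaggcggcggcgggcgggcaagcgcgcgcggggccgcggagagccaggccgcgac
Inhba: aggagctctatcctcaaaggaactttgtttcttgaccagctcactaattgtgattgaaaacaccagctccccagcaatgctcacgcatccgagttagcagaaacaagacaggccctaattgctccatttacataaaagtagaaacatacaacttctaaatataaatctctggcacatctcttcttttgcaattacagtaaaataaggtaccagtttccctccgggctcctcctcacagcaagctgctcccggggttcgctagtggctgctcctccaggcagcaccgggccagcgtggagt
Pakap: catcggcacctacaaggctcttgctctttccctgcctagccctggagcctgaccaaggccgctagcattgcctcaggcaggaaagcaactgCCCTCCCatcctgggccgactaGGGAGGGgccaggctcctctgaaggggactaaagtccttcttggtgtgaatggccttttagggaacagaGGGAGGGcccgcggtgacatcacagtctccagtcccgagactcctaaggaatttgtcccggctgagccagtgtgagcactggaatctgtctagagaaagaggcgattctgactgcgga
These windows lie at chr8:77724403-77724702 (Ednra, minus strand), chr2:152397997-152398296 (Sox12, minus strand), chr13:16011601-16011900 (Inhba, plus strand) and chr4:57844998-57845297 (Pakap, plus strand). Sox12 holds 1 match and Pakap 3, and the letters are absent from the windows of Ednra and Inhba. Over all 29 RefSeq windows inside VISTA regions, 7 held the motif on either strand, and 21.9% of the 32851 windows in the RefSeq table did.

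Counts in regions totalled 6492996 to 12292629 per library. Promoter regions were listed for 6 of 10 nephron progenitor markers (Six2, Eya1, Osr1, Sall1, Wt1 and Gdnf), at 7.85 to 20.4 CPM per kb, and for none under the names Cited1, Pax2, Itga8 and Meox1. CPM is a library's count in a region per 1000000 of its TMM-scaled total over all regions, and CPM per kb divides it by the region's length. Summed over the list, these promoters stood at 77.9 to 79.7 CPM per kb at E14.5 and 64.6 to 88.2 at P0. Promoters of stromal markers (4 of 9 genes) summed to 39.2 to 61.6 at E14.5 and 54.0 to 64.9 at P0. Those of ureteric markers (3 of 8) summed to 58.6 to 66.9 and 52.9 to 58.0, and those of endothelial markers (3 of 8) to 36.3 to 39.1 and 32.5 to 36.8. Single promoters ran from 8.755 to 22.5 CPM per kb in the stromal list and 8.92 to 40.4 in the ureteric one. In the endothelial list they ran from 8.66 to 13.7. The sums cover unlike numbers of promoters, so they do not rank the lists. None of 5 immune markers had a promoter region. No marker promoter passed the stage test at an adjusted p of 0.05 in edgeR, where 0.851% of all promoters did, so that 0 is near the background. What the other cell types added to the VISTA regions was not tested. In these bulk samples, an element open in fewer cells and an element less open in each cell cannot be told apart.

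The VISTA regions were mostly distal. By the table's own annotation, 146 were intergenic (51.2%), 95 lay in introns (33.3%), 32 at promoters (11.2%) and 12 in exons (4.21%). Among all regions the shares were 39.0% intergenic, 22.9% intronic, 32.4% at promoters and 5.67% exonic. The intergenic VISTA regions had a median distance of 39.1 kb to the nearest protein-coding gene, against 68.7 kb for all intergenic regions. VISTA regions were also longer, with a median of 1725 bp outside promoters against 1477 bp for all 29426 regions there.

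Outside promoters the VISTA regions were more open than most others. Their median level over the 6 libraries was 9.41 CPM per kb, against 8.01 for all regions outside promoters. Of these 253 VISTA regions, 175 (69.2%) lay above the median of all, 48 (19.0%) in the most open 10% and 2 (0.791%) in the least open 10%. The VISTA median was the higher one in each of 5 length classes, from 10.6 against 8.89 CPM per kb in the shortest to 8.24 against 7.23 in the longest. At promoters the order was the opposite: the 32 VISTA promoters had a median of 9.74 CPM per kb against 12.8 for all promoters, and 1 of the 32 was in the most open 10%. These are descriptions of 1 set of regions, and regions are not replicates.

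**Figure D1:**
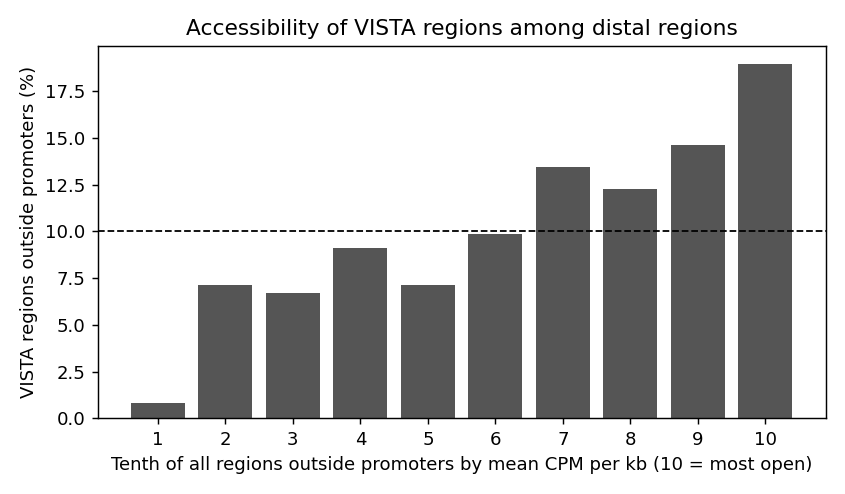
Share of the 253 VISTA regions outside promoters (vertical axis, percent) in each of 10 equal classes of all regions outside promoters, ranked by mean CPM per kb over 6 libraries (horizontal axis); the dashed line marks the 10% that an even spread gives. The bars run from 0.791% in the least open class to 19.0% in the most open one.

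The most open element outside promoters was element 1482 (chr17:37028400-37029459), between Mog, which encodes a myelin glycoprotein, and Gabbr1, which encodes a GABA receptor subunit. Its level was 49.7, 49.6 and 50.6 CPM per kb at E14.5 and 50.4, 37.8 and 53.1 at P0, in the order of replicates 1, 2 and 3, which holds for all values given by library. The groups overlapped, and P0 replicate 2 was below the other 5 libraries. It lies 5.00 kb from Mog and 16.5 kb from Gabbr1.

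Element 1501 (chr13:84347706-84349744), 51.7 kb from Tmem161b and on the other side 840 kb from the cyclin gene Ccnh, stood at 45.5, 47.0 and 56.0 CPM per kb at E14.5 and 43.7, 32.4 and 44.8 at P0. Every P0 library was below every E14.5 library here, but the difference was small beside its error, at a log2 fold change from E14.5 to P0 of -0.29 ± 0.21 (SE), and its adjusted p in edgeR's quasi-likelihood test was 0.496. Element 1459 (chr3:65974040-65975653), 12.01 kb from Ccnl1, which encodes cyclin L1, had 38.7, 44.6 and 44.2 CPM per kb at E14.5 and 40.0, 31.8 and 49.8 at P0. Its groups overlapped, with P0 libraries both lowest and highest.

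Element 260 (chr12:85454812-85455982) lies 17.9 kb from Fos, which encodes a subunit of the AP-1 transcription factor. It had 46.1, 35.5 and 35.7 CPM per kb at E14.5 and 35.3, 26.9 and 35.6 at P0, so that the groups overlapped and E14.5 replicate 1 was the highest. Element 1495 (chr14:65343114-65344548), between Fbxo16 and Zfp395, had 45.7, 28.01 and 38.3 at E14.5 and 32.1, 18.4 and 35.5 at P0. It varied more between libraries than the others, and its groups overlapped. Element 992 (chr8:32292527-32293913), classed as intergenic in the table but inside the RefSeq span of Nrg1, the gene of the growth factor neuregulin 1, ranged from 26.1 to 35.6 CPM per kb over the 6 libraries. Element 256 on chromosome 6, near Atf7ip, ranged from 19.6 to 35.2, and element 912, in an intron of Rgs20, a regulator of G protein signalling, from 22.0 to 31.8.

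Both remaining regions of the 10 most open came from a single locus on chromosome 16, where 4 elements lay within 244 kb (chr16:15052274-15295921) of the long interval between Efcab1 and Ube2v2. Element 466 had 28.3, 38.3 and 36.6 CPM per kb at E14.5 and 38.9, 25.1 and 41.7 at P0. Element 383 had 21.3, 32.9 and 27.4 at E14.5 and 29.3, 21.6 and 28.4 at P0. In both, the groups overlapped, and the lowest and highest libraries differed by more than the stage means did. Their neighbour 382 averaged 24.3 ± 3.99 CPM per kb (SD, n = 6), and element 467 at the far end averaged 7.14 ± 0.949 (SD, n = 6), the lowest of the 4. Within these 4 elements the log2 fold change from E14.5 to P0 ran from -0.04 to 0.29, and the lowest adjusted p in edgeR was 0.498.

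None of the 10 most open distal elements passed the stage test: adjusted p ran from 0.476 to 0.980 in edgeR, and 0 of the 10 had an unadjusted p under 0.05. With 6.59% of all regions outside promoters past the threshold, 0 of 10 is near the background. By DESeq2's Wald test and by limma-voom 0 of the 10 passed as well. P0 replicate 2, the library with the fewest counts, was the lowest of the 6 in 8 of the 10. The same library was lowest in 28 of the 48 VISTA regions in the most open 10% (58.3%), and in 24.2% of all 2943 regions outside promoters at that level. Without it, the adjusted p of the 10 ran from 0.553 to 0.949 in edgeR. Enhancer transcription entries of the FANTOM collection stood beside 8 of the 10.

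**Figure D2:**
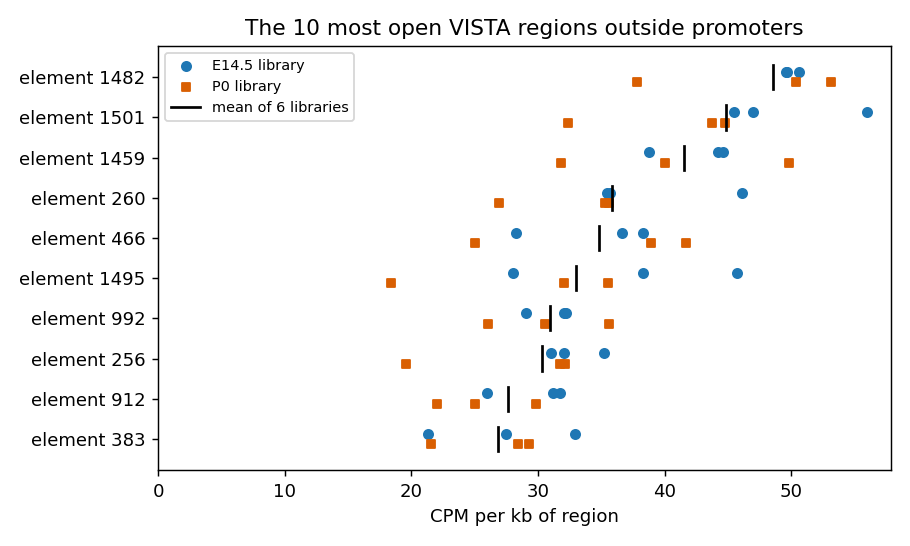
CPM per kb of region (horizontal axis) in each of 3 E14.5 libraries (circles) and 3 P0 libraries (squares) for the 10 most open VISTA regions outside promoters (vertical axis); black lines are means of 6 libraries. The stages do not overlap in element 1501 and overlap in the other rows, and P0 replicate 2 is the lowest point in 8 of the 10.

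At the other end, element 1384 in an intron of Nmt1, the gene of an N-myristoyltransferase, had 3.50, 1.39 and 3.20 CPM per kb at E14.5 and 1.43, 4.55 and 1.54 at P0. Both stages had low and high libraries, and the groups overlapped. Element 1587, in an intron of Parvb, averaged 5.35 ± 1.41 CPM per kb (SD, n = 6). All 285 VISTA regions had at least 10 counts in every library, with a range of 15 to 1198 counts.

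Among VISTA promoters, Fam110b (element 718) was the most open, with 45.6, 58.4 and 51.8 CPM per kb at E14.5 and 70.3, 58.6 and 65.6 at P0. Every P0 library was above every E14.5 library, yet the log2 fold change of 0.32 ± 0.20 (SE) had an adjusted p of 0.425 in edgeR. Ednra (element 759), the gene of the endothelin A receptor, had 31.9, 27.95 and 26.9 at E14.5 and 36.6, 25.5 and 34.2 at P0, with overlapping groups. Element 390, a promoter region inside the RefSeq span of Rsbn1l, had 24.5, 28.2 and 30.6 at E14.5 and 28.6, 18.7 and 37.6 at P0, and its P0 libraries were both lowest and highest. Sox12 (element 271), a SoxC transcription factor gene, had 30.4, 22.9 and 28.01 at E14.5 and 20.01, 15.4 and 27.5 at P0, again with overlap. Inhba (element 653), whose product is a subunit of activin A, had 20.4, 17.8 and 17.2 at E14.5 and 23.3, 22.2 and 23.4 at P0. The P0 libraries of Inhba were the higher ones, and the difference did not pass the test (log2 fold change 0.31 ± 0.18 SE, adjusted p 0.391 in edgeR).

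The share of all counts that fell in VISTA regions did not differ between the stages beyond the spread of the libraries. It was 0.532%, 0.6004% and 0.595% at E14.5 and 0.588%, 0.523% and 0.634% at P0. The means were 0.576% ± 0.0378 and 0.582% ± 0.0555 (SD, n = 3 each), and the exact two-sided permutation p was 1, where 3 against 3 libraries cannot go below 0.1. The E14.5 values lay within the range of the P0 values. A single region outside the VISTA set held so many counts that the shares were also computed without it, and the difference then changed sign, from 0.00585 to -0.00467 percentage points.

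Few VISTA regions differed between the stages. In edgeR's quasi-likelihood test with Benjamini-Hochberg adjustment over all regions, 8 of 285 passed an adjusted p of 0.05 (2.81%), against a background of 4.73% of all regions. Of these, 1 was higher at P0 (background 1.79%) and 7 were lower (background 2.94%). Outside promoters 7 of 253 passed (2.77%), where the background was 6.59%, and at promoters 1 of 32 (3.12%), where the background was 0.851%. An unadjusted p under 0.05 was found in 53 VISTA regions (18.6%), near the background of 18.7%, and the groups did not overlap in 74 (25.96%), near the background of 24.2%. At least a 2-fold fitted change was seen in 5 (1.75%) against 4.09% of all regions. The median log2 fold change from E14.5 to P0 was -0.05 in VISTA regions, 0.01 over all regions and 0.10 over all regions outside promoters. With scaling by total counts the split was 2 higher and 5 lower (background 4.47%). Other settings gave 7 to 11 VISTA regions: 7 by limma-voom (background 4.38%), 11 by DESeq2's Wald test (background 6.38%), 8 with a mean of at least 50 counts (background 4.9%), 9 on autosomes only (background 5.07%) and 7 with the replicate number as a block (background 4.21%). At an adjusted p under 0.01 none passed in edgeR (background 1.24%), where DESeq2's Wald test called 6 (background 3.44%), and 18 passed at 0.1 (background 8.02%).

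**Figure D3:**
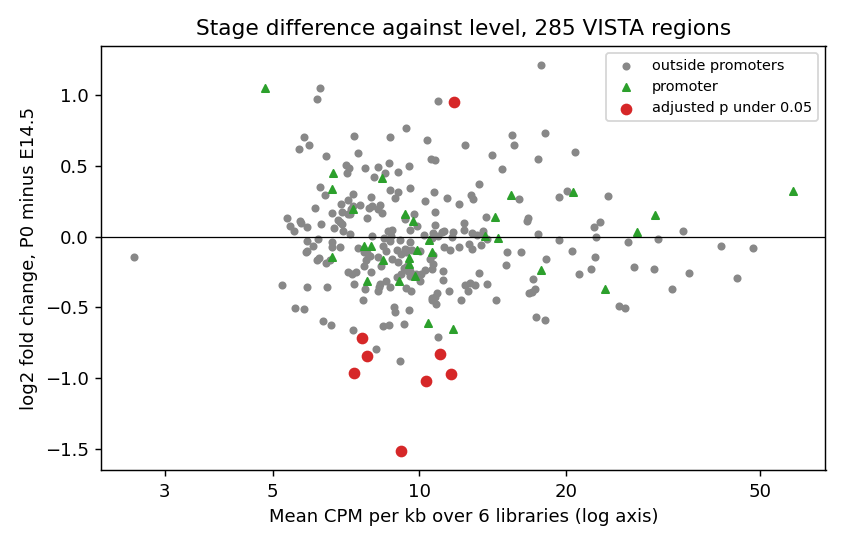
Log2 fold change from E14.5 to P0 (vertical axis) against mean CPM per kb over 6 libraries (horizontal log axis) for the 285 VISTA regions; triangles are promoters and large red points the 8 regions with an adjusted p under 0.05. There are 7 red points below 0 and 1 above, all at middle levels from 7.33 to 11.8 CPM per kb.

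The element that rose was 457 (chr15:62902095-62903913), in the gene-poor interval between Myc, the gene of a transcription factor of growth and division, and Gsdmc. It had 12.1, 19.3 and 12.3 CPM at E14.5 and 34.6, 26.8 and 23.4 CPM at P0. All P0 libraries were above all E14.5 libraries. The rise was 1.93-fold (log2 fold change 0.95 ± 0.23 SE, adjusted p 0.0302 in edgeR). It lies 912 kb from Myc and 872 kb from Gsdmc. Element 641 (chr15:61157460-61158643), 827 kb from Myc on its other side, had a log2 fold change of 0.14 ± 0.20 (SE).

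The region that fell most was element 65 (chr10:59443256-59443748), listed as a promoter of Oit3 and lying 3.24 kb from Mcu, the gene of the mitochondrial calcium uniporter. It had 6.999, 6.04 and 7.01 CPM at E14.5 and 1.56, 2.88 and 2.61 at P0. All P0 libraries were below all E14.5 libraries. The fall was 2.85-fold (log2 fold change -1.51 ± 0.35 SE, adjusted p 0.0219 in edgeR). Few reads lie behind it: P0 replicate 1 had 15 counts here, and no VISTA region had fewer in any library. The median per VISTA region and library was 159.

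Element 1689 (chr8:56982565-56984869) lies between Fbxo8 and Hand2, a transcription factor gene of limb, heart and branchial arch development that is 336 kb away. It had 20.8, 21.1 and 25.2 CPM at E14.5 and 13.5, 10.3 and 10.5 at P0. The stages were well apart, and the log2 fold change was -0.96 ± 0.21 (SE) with an adjusted p of 0.0170 in edgeR. Neighbouring elements did not all move with it: 1687, farther from Hand2, had a log2 fold change of 0.62 and an adjusted p of 0.172, and 847, 36.5 kb beyond Hand2, one of -0.53 and 0.337. The differences between these elements were not tested.

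Another 4 elements that fell lie in introns. Element 296 (chr12:88983115-88985461), in Nrxn3, the gene of a synaptic adhesion protein, had 23.8, 24.7 and 22.1 CPM at E14.5 and 13.01, 14.4 and 12.1 at P0. Its libraries were close together within each stage, and it fell 1.80-fold (adjusted p 0.0219 in edgeR). Element 881 (chr13:77546418-77549028), in 2210408I21Rik, had 33.3, 34.9 and 42.4 CPM at E14.5 and 21.97, 22.3 and 18.3 at P0, without overlap. It fell 1.77-fold (adjusted p 0.0238 in edgeR).

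Element 1483 (chr8:90861740-90862441), in Chd9, which encodes a chromatin remodelling enzyme, had 9.37, 11.1 and 11.9 CPM at E14.5 and 5.41, 6.05 and 5.13 at P0. It fell 1.96-fold (adjusted p 0.0450 in edgeR). Element 1577 (chr3:5348714-5351624), in Zfhx4, a zinc finger and homeobox gene, had 24.6, 27.2 and 31.3 CPM at E14.5 and 15.1, 17.1 and 18.2 at P0, and fell 1.64-fold (adjusted p 0.0460 in edgeR). Both were without overlap and close to the threshold. With total-count scaling neither passed in edgeR (adjusted p 0.0640 and 0.0798), and by limma-voom the adjusted p of element 1577 was 0.0543. Of the 11 settings tried, element 1483 passed in 3 and element 1577 in 4. A second element in Zfhx4, 1541, had a log2 fold change of -0.09 and an adjusted p of 0.874.

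Each of these calls was lost when 1 of the libraries was left out. Without E14.5 replicate 3, 0 of the 285 VISTA regions passed in edgeR (background 0.779%), with 35 at an unadjusted p under 0.05 (background 12.1%), and the adjusted p of the 8 rose to between 0.0893 and 0.243. Without P0 replicate 1, element 1689 alone passed (background 1.09%), and without E14.5 replicate 1 the count was 3, elements 1689 and 881 among them (background 2.53%). Without E14.5 replicate 2, P0 replicate 2 or P0 replicate 3, the counts were 10, 9 and 7 (backgrounds 6.86%, 3.8% and 5.16%). Each of the 8 kept its direction in all of the 11 settings tried for named regions.

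**Figure D4:**
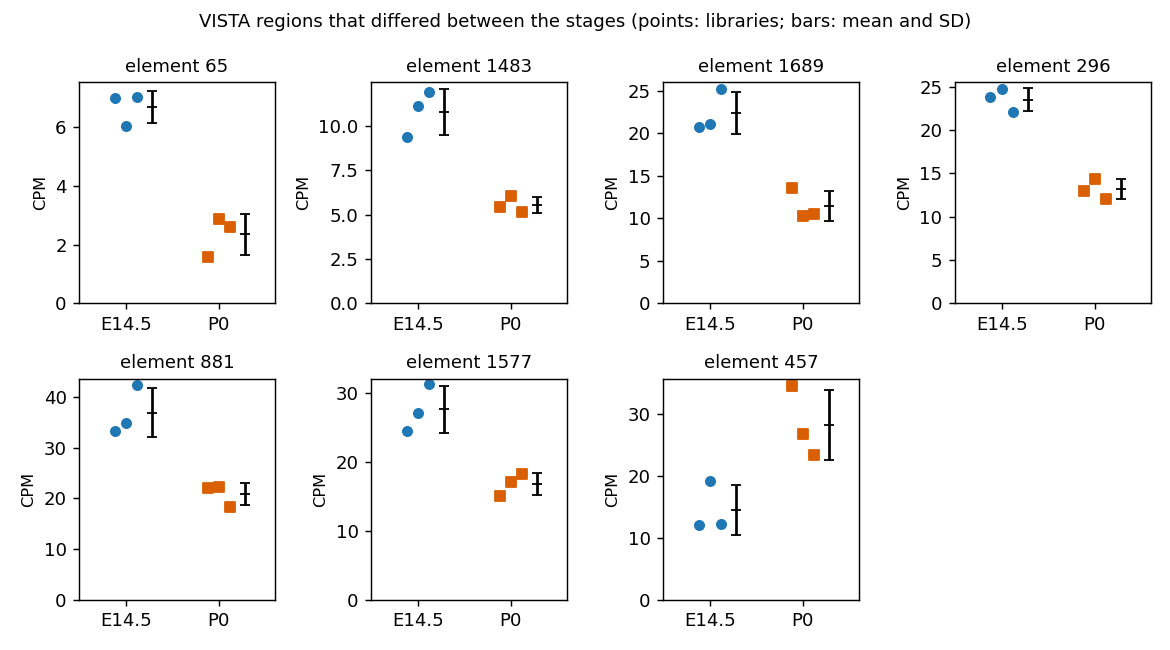
CPM (vertical axes, from 0) of 7 of the VISTA regions with an adjusted p under 0.05, by stage; points are libraries and bars the mean with SD (n = 3). In every panel the stages do not overlap, with P0 above E14.5 in element 457 and E14.5 above P0 in the other panels.

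Of a list of 62 regulators of kidney development, some were the nearest genes of 3 VISTA regions. None of the 3 passed the stage test, which so few regions cannot set apart from the background of 4.73%. Of these regions 2 belong to Meis2. Within Meis2, a homeobox gene of the mesenchyme, intronic element 1735 had 6.10, 5.35 and 6.501 CPM per kb at E14.5 and 8.03, 8.91 and 8.20 at P0, higher in every P0 library but with an adjusted p of 0.369 in edgeR. The Meis2 promoter region (element 669) averaged 6.63 ± 1.15 CPM per kb (SD, n = 6). A gene of the kidney list lay within 500 kb of 7 VISTA regions (2.46%), against 2.59% of all regions.

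Lists of regulators of other organs were counted in the same way, and Meis2 stands in both the kidney and the neural list. A gene of a neural list lay within 500 kb of 10 VISTA regions (3.51%, against 1.84% of all regions), a gene of a limb and face list near 10 (3.51% against 1.07%) and a gene of a heart and mesoderm list near 4 (1.40% against 0.519%). By nearest gene the counts were 9, 4 and 3, of which 1, 1 and 0 passed the stage test: element 1577 in Zfhx4 and element 1689 near Hand2. These are few regions to set beside the 4.73% of all regions that passed. The Sox9 promoter region (element 635) averaged 9.80 ± 1.73 CPM per kb (SD, n = 6), an intronic element of Gli3 (652) 8.91 ± 1.72, and the Mef2c promoter region (element 1175) 8.38 ± 1.76. Element 766, nearest to Hey2, a Notch target gene, had 11.4, 13.1 and 16.2 CPM per kb at E14.5 and 6.65, 8.09 and 10.1 at P0, with a log2 fold change of -0.71 and an adjusted p of 0.0951 in edgeR. Its groups did not overlap, and without P0 replicate 3 the adjusted p was 0.0477. Element 698, nearest to Bcl11a, was set by 1 library: it had 19.4, 4.81 and 8.34 CPM per kb at E14.5 and 65.5, 6.44 and 2.06 at P0.

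The motif names listed in the table differed between VISTA regions and other distal regions. Maz was listed in 68 of the 253 VISTA regions outside promoters (26.9%), against 13.2% of all regions outside promoters and 14.9% after weighting to the same lengths. Sall1, the name of a zinc finger regulator that nephron progenitors need, was listed in 17.4%, against 8.95% at the same lengths. Any E2f name was listed in 13.8% against 7.20%, while any Sox name was listed in 19.8% against 17.1%. Among the single names, Sall4 was listed in 13.4% against 8.72%, Sox9 in 10.3% against 6.10%, Sox10 in 9.88% against 6.45% and Sox2 in 6.72% against 6.84%. Weighting by level as well as length gave 15.5% for Maz, 9.24% for Sall1, 7.87% for E2f and 5.85% for Sox9.

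The names of other regulators and families gave the following shares. Six2, the name of the central regulator of nephron progenitors, was listed in 3.16% against 3.43% at the same lengths, AP-1 names in 3.56% against 3.78% and Smad names in 11.5% against 10.6%. Forkhead names were listed in 22.1% against 26.2%, and Meis names in 4.35% against 7.60%. Of the 8 elements that differed between the stages, 5 had no motif listed. The others had one, such as Six2 in element 1577 and Meis2 in element 881. Any motif was listed in 191 of the 285 VISTA regions. Outside promoters the share was 67.2% of VISTA regions and 58.9% of all regions, from which so few elements cannot be set apart. A listed name is a match of letters to a motif, not a measured binding site, and these shares were not tested.

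**Figure D5:**
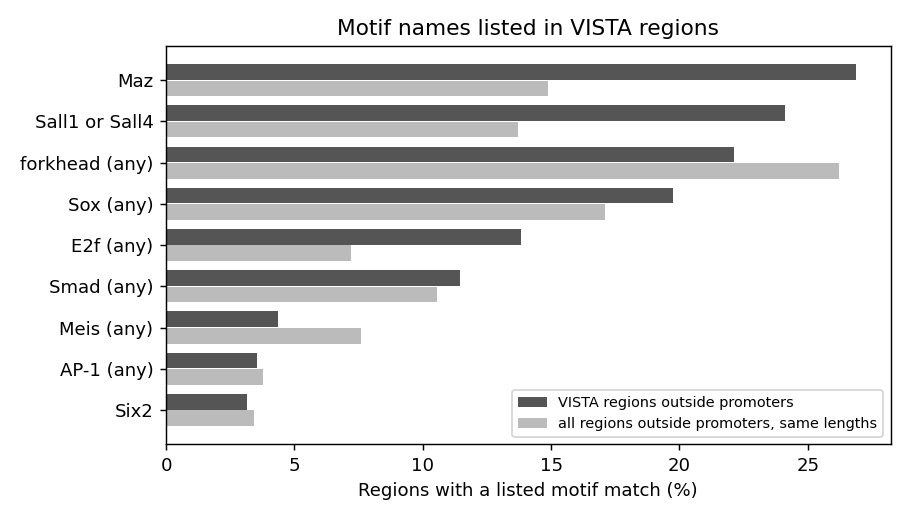
Percent of regions (horizontal axis) with a listed match to each motif name or family (vertical axis), for the 253 VISTA regions outside promoters (dark bars) and all regions outside promoters weighted to the same lengths (light bars). Maz stands at 26.9% against 14.9% and E2f at 13.8% against 7.20%, while Six2 stands at 3.16% against 3.43%.

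Transcribed enhancers of the FANTOM collection were listed in 127 VISTA regions (44.6%), against 9.65% of all regions. The 3 regions of element 469 shared 1 entry. Whether entries came with the element instead of the region was not tested. Counting only entries that lay within 1 region length of the position expected from their neighbours, the share was 38.2% against 9.33%. Of the entries in VISTA regions, 109 of 127 lay that close (85.8%), against 96.6% of the entries in all regions.

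The authors' deposited table classed 5 VISTA regions as opening and 5 as closing between the stages, 5.34% of all regions having such a class. Its classes reached an adjusted p of 0.0999, and no VISTA region was under 0.05 there. Of the 10, 5 were among the 8 above, namely elements 457, 65, 296, 881 and 1689. The classed regions that did not pass here were 243, 265, 1073 and 1365 (opening) and 57 (closing), with adjusted p from 0.0519 to 0.0944 in edgeR.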

How the data were processed

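Chromatin accessibility was measured in 6 ATAC-seq libraries of 50000 Itga8-selected cells each, 3 at E14.5 and 3 at P0, per the labels' protocols. Samples were grouped and numbered by their source names. Per the file headers, the deposited values are whole-number counts of reads per region and library. Build mm10 is named in the submitters' processing notes. The aligner, peak caller, counting rule, Tn5 shift and duplicate removal are not given in the sources used here. The authors' log2 fold changes, p-values and classes stand in the same deposited table, per the file headers, and only its classes and adjusted p-values are printed. Its log2 fold changes served to check the direction of its comparison, with the same sign as here in 91.1% of regions. Motif, FANTOM and VISTA entries are the table's own, and the motif set is not given.

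Of 45489 rows, 1966 repeated a region and were dropped. Regions with several classes were counted as promoter, then exon, then intron. The stage test was that of edgeR 4.0.16 under R 4.3.3 (TMM, filterByExpr, which removed 0 regions, quasi-likelihood test, stage only), with Benjamini-Hochberg adjustment over all 43523 regions. The standard error is the log2 fold change divided by the square root of F. Levels are CPM with TMM-scaled totals. Replicates differed beyond sampling noise in every pair (chi-square per degree of freedom 5.33 to 17.7), and p-values measure the spread between litters. Totals of 6492996 to 12292629 counts and a median of 159 counts per VISTA region and library set the sampling noise, to which the spread between litters adds.

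Gene names came from the table itself, which pairs 28296 identifiers with names, and 123 of the 136 VISTA regions with an identifier matched RefSeq (GRCm38.p6), which gave distances and promoter windows. Named regions were the VISTA regions past the threshold with groups that do not overlap (up to 10 per direction), the 10 most and 3 least open outside promoters, those nearest to listed kidney genes, and up to 4 per other list. Some of these are not reported here. The VISTA promoters, the locus on chromosome 16, elements 641 and 1687 and the regions the authors classed were chosen after their values were seen. Members and lists were chosen with earlier results of these data known. Alternatives were other scalings, filters and thresholds, a replicate block, leaving out each library, limma-voom 3.58.1 and DESeq2 1.42.0. The 500 kb window, the motif weightings and the fit without the region with the most counts were chosen after seeing the data. Figures used matplotlib 3.10.9, and tables Python 3.11.15 with pandas 2.3.3, numpy 2.4.6 and scipy 1.17.1.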

Additional observations from a re-analysis of the deposited data

How the results depend on the processing

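The count of VISTA regions past the threshold (8, with 1 higher and 7 lower at P0) was 0 at an adjusted p of 0.01 in edgeR, with 0 higher and 0 lower, where DESeq2's Wald test gave 6 (3.44% of all regions) and 53 had an unadjusted p under 0.05. At 0.1 it was 18, with 8 higher. Leaving out 1 library gave 0 to 10 regions, 0 to 4 higher and 0 to 6 lower. The number higher at P0 was 2 with total-count scaling, a mean of at least 50 counts, autosomes only or without the region with the most counts, and 3 with DESeq2's Wald test. With a replicate block it was 2 of 7 called, and the median log2 fold change was -0.05. Same-numbered libraries did not deviate together (correlations of 0.07, -0.14 and 0.08, against -0.24 to 0.19 for unlike numbers). With 3 libraries per stage, this cannot decide whether the numbers pair the samples. Of the 8 calls 6 remained with the block, and element 1483 was among those lost (adjusted p 0.0723). The median log2 fold change was -0.1204 to 0.01917 with 1 library left out. The stage difference in the share of counts reversed to -0.00467 without the region with the most counts and to -0.0809 outside promoters, and ran from -0.0201 to 0.0351 with 1 library left out. Ranked by CPM not divided by length, 5 of the 10 most open distal elements stayed among the 10. In the named regions 318 of 374 log2 fold changes kept their direction and side of the threshold, 32 lost the call, 1 gained it and 23 changed sign, all of them in regions past the threshold under neither setting. With total-count scaling element 992 was at 0.042 and element 383 at 0.0076. With 1 library left out, the log2 fold change ran from -0.19 to 0.051 in element 1482, -0.26 to 0.080 in 1459, -0.12 to 0.23 in 466, -0.15 to 0.088 in 992, -0.19 to 0.11 in 383, -0.093 to 0.34 in 1587, -0.84 to 0.12 in 1384, -1.44 to 1.93 in 698, -0.21 to 0.046 in 1541 and -0.083 to 0.18 in 1539. The cause of these changes was not tested. Depth limits the low regions: the lowest count of a VISTA region in a library was 15.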
